A study of Mus musculus with 6 samples.

Results

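The transcripts of 9 Toll-like receptor (TLR) genes and of Cd14 were measured in mouse MC38 tumors by bulk RNA-seq. The members were the rows of the deposited gene table whose name was Tlr1, Tlr2, Tlr3, Tlr4, Tlr6, Tlr7, Tlr8, Tlr9, Tlr13 or Cd14, which gave 10 of 33965 genes, and all 10 passed the filter on low counts. MC38 is a single mouse colon carcinoma cell line, and here it was grown under the skin of C57BL/6 mice. The paper's methods describe 6-week-old female mice, without tying that age to the sequenced tumors. In the PBS group 3 tumors came from mice given phosphate-buffered saline only, and in the GB2 group 3 tumors came from mice given GB2, a prodrug in which a disulfide bond that glutathione opens links artesunate with MSA-2, an agonist of STING. A GB2 dose of 10 mg/kg is given for the MC38 model but not separately for the sequenced tumors, and the time of collection is not given in the sources used here. No genotype was altered in either group, and the host mice kept their own immune cells.

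Toll-like receptors are membrane proteins that recognise molecules of microbes and of damaged cells. Tlr1, Tlr2, Tlr4 and Tlr6 encode receptors of the cell surface, which bind bacterial lipids and lipopeptides, and Cd14 encodes a coreceptor that hands lipopolysaccharide to the Tlr4 complex and also serves other receptors. Tlr3, Tlr7, Tlr8, Tlr9 and Tlr13 encode receptors of the endosome, which bind nucleic acids once the chaperone Unc93b1 has brought them there. All signal through the adaptor Myd88 except Tlr3, which uses Ticam1 (TRIF), while Tlr4 uses both. In tumors, macrophages, dendritic cells and neutrophils are known for expressing many of these receptors, and Tlr3 and Tlr4 are also found in epithelial and stromal cells.

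The deposited counts summed to 64764405 to 69878156 in the PBS tumors and to 81210553 to 83690056 in the GB2 tumors, and about 4 counts stood for 1 read pair. Values are given as CPM, counts scaled to a common library size with TMM factors, where 1 read pair was worth 0.0471 to 0.0676 CPM. The first principal component, with 34.0% of the variance of log2 CPM, ran from PBS tumor 1 at one end to the remaining 5 tumors, which lay away from it. Macrophage markers were present in every tumor and differed between the groups. The summed CPM of the 10 markers ran from 65.2 to 92.3 in PBS and from 254 to 354 in GB2 tumors. Each of the 10 was higher in every GB2 tumor than in every PBS tumor, which held for 8.61% of all genes. Fibroblast markers also separated the groups, with 189 to 358 against 605 to 849 CPM summed over 5 genes. So did 4 of 5 endothelial markers (Pecam1, Cdh5, Kdr and Tek), while Vwf overlapped with a log2 fold change of -0.48, and that list summed to 43.5 to 61.5 CPM in PBS and 97.6 to 110.9 CPM in GB2 tumors. The labelled carcinoma expressed little of the epithelial list, since its 8 genes summed to 3.04 to 8.52 CPM and Cdx2, an intestinal transcription factor, did not exceed 0.04 CPM.

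None of the 10 members passed the edgeR test, for which a gene needed a 2-fold difference and an adjusted p under 0.05. Neither did any other of the 19602 genes tested (0%), although 1360 (6.94%) had an unadjusted p under 0.05 and DESeq2 called 385 (1.97%). Within this limit the members did not behave alike. Cd14, Tlr7, Tlr8 and Tlr13 had fold changes of more than 3 and groups that did not overlap, whereas Tlr1, Tlr2, Tlr4 and Tlr6 overlapped between the groups. Tlr3 and Tlr9 were higher in every GB2 tumor, Tlr3 by a small margin and Tlr9 on very few reads. With a 2-fold difference and an unadjusted p under 0.05 in edgeR, called the unadjusted limit here, 4 of 10 members were higher in GB2 (Cd14, Tlr7, Tlr8 and Tlr13), against 3.74% of all genes (4.66% in either direction). In 6 of 10 members all GB2 values exceeded all PBS values, against 8.61% of all genes, and in none did they lie below them, against 6.68%. The fitted log2 fold change was above 0 in 9 of 10 members and in 48.3% of all genes. DESeq2 called these same 4 members, where it called 1.8% of all genes as higher. Without PBS tumor 1, 4 members passed the unadjusted limit, against 5.45% of all genes, and 7 had groups that did not overlap, against 26.3% of all genes, the added one being Tlr6 with lower GB2 values. In a bulk sample, more cells of a type and more RNA per cell cannot be told apart, which holds for every difference given here.

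**Figure D1:**
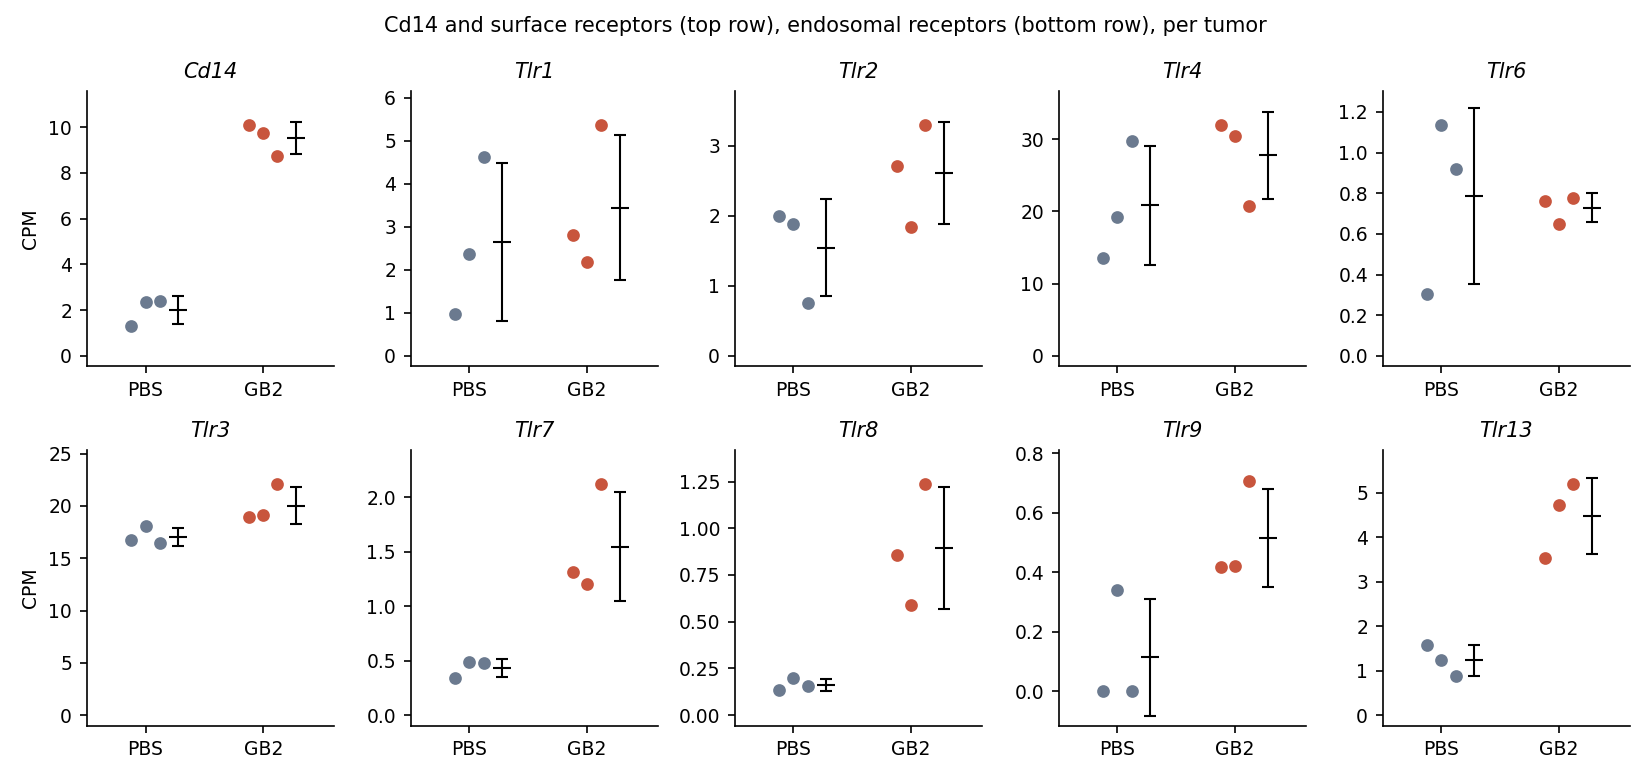
CPM of each gene (vertical axis, linear, with its own range in each panel) in the 3 PBS (grey) and 3 GB2 (red) tumors, shown in replicate order, with the mean and SD of each group beside the points. Cd14, Tlr3, Tlr7, Tlr8, Tlr9 and Tlr13 have every GB2 point above every PBS point, while the groups of Tlr1, Tlr2, Tlr4 and Tlr6 overlap.

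Cd14 (ENSMUSG00000051439) showed the best separated difference of the 10 genes. Its levels were 1.30, 2.36 and 2.39 CPM in PBS tumors 1 to 3 and 10.09, 9.75 and 8.75 CPM in GB2 tumors 1 to 3. The 3 GB2 tumors lay close together and far above the PBS tumors, with means of 2.02 ± 0.62 and 9.53 ± 0.69 CPM (SD, n = 3 each), a ratio of 4.73. The log2 fold change was 2.24 ± 0.31 (standard error), with a 95% interval of 1.51 to 2.97. Its unadjusted p was 1.31e-04, the 9th smallest of all genes, and its edgeR adjusted p was 0.186, while DESeq2 gave an adjusted p of 1.576e-09 and the other fits, those with a tumor left out included, ran up to 0.710. Leaving out each tumor in turn kept the log2 fold change between 2.02 and 2.38. In FPKM, the authors' values per transcript length, Cd14 averaged 1.09 ± 0.397 in PBS and 5.39 ± 0.388 in GB2 tumors.

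The surface receptors that Cd14 serves did not show a difference of that size. Tlr4 (ENSMUSG00000039005, chromosome 4, 66745821 to 66848521, plus strand), the lipopolysaccharide receptor, was at 13.54, 19.20 and 29.78 CPM in PBS tumors and at 31.95, 30.50 and 20.81 CPM in GB2 tumors. PBS tumor 3 was nearly as high as the upper GB2 tumors, and GB2 tumor 3 lay among the PBS values. The means were 20.8 ± 8.24 and 27.8 ± 6.06 CPM (SD, n = 3 each), and the log2 fold change was 0.41 with an interval from -0.33 to 1.16 and an edgeR adjusted p of 0.796. It moved to 0.77 without PBS tumor 3 and to 0.19 without PBS tumor 1.

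Tlr2 (ENSMUSG00000027995, chromosome 3, 83743579 to 83749074, minus strand) encodes the shared partner of the lipopeptide receptors. It was at 2.00, 1.89 and 0.75 CPM in PBS tumors and at 2.70, 1.84 and 3.29 CPM in GB2 tumors. Only GB2 tumor 2 reached down into the PBS range. The log2 fold change was 0.76 with an interval from -0.30 to 1.81 and an edgeR adjusted p of 0.759, and it was 0.43 without PBS tumor 3.

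Tlr1 and Tlr6 encode the partners with which Tlr2 forms receptors for triacylated and diacylated lipopeptides. Tlr1 (ENSMUSG00000044827, chromosome 5, 65082022 to 65090904, minus strand) was at 0.96, 2.36 and 4.61 CPM in PBS and at 2.80, 2.18 and 5.36 CPM in GB2 tumors, so the spread within each group exceeded the difference between the group means. Its log2 fold change of 0.38 had an interval from -1.01 to 1.77 and an edgeR adjusted p of 0.889. It ran from 1.05 without PBS tumor 3 to -0.09 without GB2 tumor 3, which reversed its sign. Tlr6 (ENSMUSG00000051498, chromosome 5, 65109374 to 65117440, minus strand) was at 0.30, 1.14 and 0.92 CPM in PBS and at 0.76, 0.65 and 0.78 CPM in GB2 tumors. The GB2 values lay inside the range of the PBS values. Its log2 fold change of -0.11 had an interval from -1.35 to 1.13 and an edgeR adjusted p of 0.959, and it took the other sign without PBS tumor 2 (0.25) or PBS tumor 3 (0.02), under the replicate block (0.06) and on log2(FPKM + 0.1) (0.05).

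Tlr1 and Tlr6 are neighbours on chromosome 5, with 18469 bases between them in the table, and parts of their transcripts are identical. In the GENCODE M21 transcripts (GRCm38), 139 of the 2876 windows of 150 bases in Tlr1 (4.83%) also occur in Tlr6, and these 139 are 3.94% of the 3528 windows of Tlr6. A read from these windows fits both genes, so the split of counts between Tlr1 and Tlr6 is uncertain there, and no other pair of the 10 genes shares such a window. There were 3 identical runs of at least 100 bases, with 556 bases in all. The longest, of 229 bases, is shown because a read that lies wholly inside it fits both genes. It lies in the coding sequence of both genes, at chr5:64925537-64925765 in Tlr1 and chr5:64953828-64954056 in Tlr6 (GRCm38, minus strand).
Tlr1 and Tlr6 shared run: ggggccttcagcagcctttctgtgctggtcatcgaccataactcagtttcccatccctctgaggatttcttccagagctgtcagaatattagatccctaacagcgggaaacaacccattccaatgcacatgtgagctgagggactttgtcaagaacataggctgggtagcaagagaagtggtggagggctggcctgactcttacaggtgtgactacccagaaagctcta

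The 5 genes of the endosomal receptors all had higher means in GB2 tumors and groups that did not overlap, where 8.61% of all genes lay higher in every GB2 tumor. The median of their log2 fold changes was 1.87, against 0.41 over the 4 surface receptors and Cd14 and -0.02 over all genes tested. These medians describe lists whose members were chosen with earlier results known, and no test was run on them. The endosomal median depended on the scale. It was 0.25 on log2(FPKM + 1), where 4 of the 5 genes lie near or below the pseudocount, and 1.22 on log2(FPKM + 0.1).

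**Figure D2:**
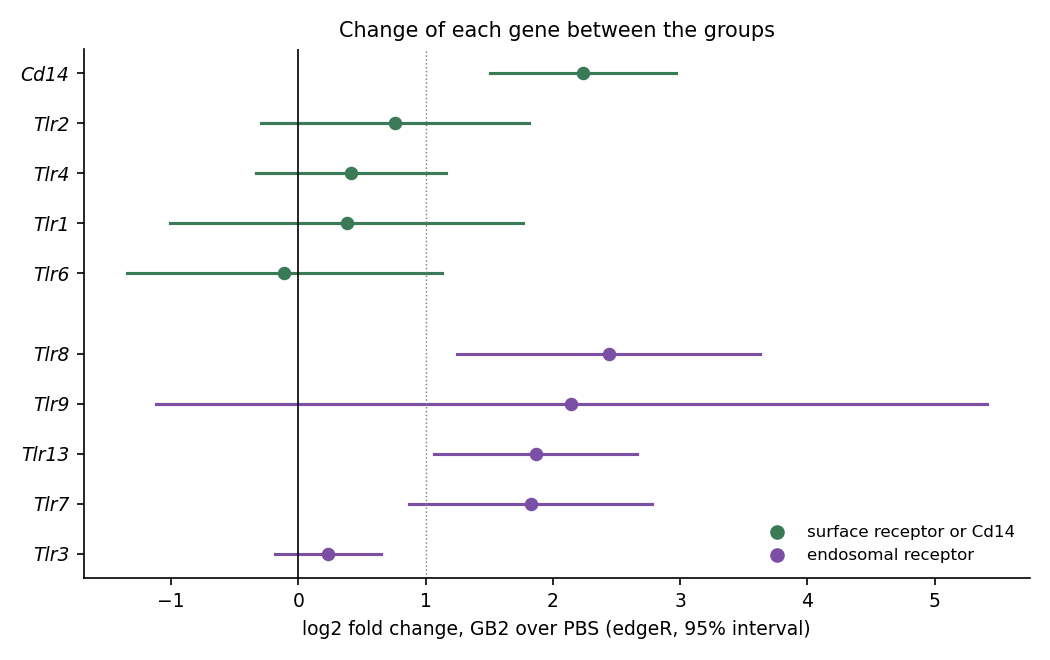
Log2 fold change of each gene, GB2 over PBS, on the horizontal axis with its 95% interval from edgeR, for surface receptors and Cd14 (green) and endosomal receptors (purple). The dotted line marks a 2-fold difference; the intervals of Cd14, Tlr7, Tlr8 and Tlr13 lie above 0, and those of the other 6 genes include 0.

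Tlr13 (ENSMUSG00000033777, chromosome X, 105186810 to 105204099, plus strand) encodes a receptor for bacterial ribosomal RNA that mice have and humans lack. It was at 1.57, 1.23 and 0.88 CPM in PBS tumors and at 3.54, 4.71 and 5.19 CPM in GB2 tumors. The lowest GB2 tumor was more than 2-fold above the highest PBS tumor. The means of 1.23 ± 0.35 and 4.48 ± 0.85 CPM (SD, n = 3 each) differed by a ratio of 3.65. Its log2 fold change was 1.87 ± 0.34 (standard error, 95% interval 1.07 to 2.67) with an edgeR adjusted p of 0.193, and it was at least 1.68 whichever tumor was left out.

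Tlr7 (ENSMUSG00000044583, chromosome X, 166087925 to 166113554, minus strand) encodes a receptor for single-stranded RNA. It was at 0.34, 0.48 and 0.48 CPM in PBS tumors and at 1.31, 1.20 and 2.12 CPM in GB2 tumors. All 3 GB2 tumors lay above the PBS tumors and GB2 tumor 3 was the highest. The ratio of the means was 3.56 and the log2 fold change 1.82 ± 0.41 (standard error, 95% interval 0.87 to 2.78), with an edgeR adjusted p of 0.269. These values rest on about 22 read pairs in PBS and 98 in GB2 tumors, whose ratio of 3.54 has a 95% counting interval of 2.21 to 5.90. Counting intervals cover counting error only. With each tumor left out, the log2 fold change ran from 1.53 (without GB2 tumor 3) to 1.98.

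Tlr8 (ENSMUSG00000040522, chromosome X, 166025692 to 166047295, minus strand) is the neighbour of Tlr7 and encodes a related receptor, with 40629 bases between both genes. It was at 0.14, 0.20 and 0.16 CPM in PBS tumors, which is 2 to 3.5 read pairs a tumor, and at 0.86, 0.59 and 1.24 CPM in GB2 tumors. The PBS values sat at the detection limit of 3 read pairs (0.141 to 0.203 CPM), and all GB2 values lay above it. The log2 fold change was 2.44 ± 0.51 (standard error, 95% interval 1.25 to 3.63), with an edgeR adjusted p of 0.234. About 8 read pairs in PBS and 56 in GB2 tumors gave a ratio of 5.56 with a counting interval of 2.64 to 13.5, so the size of this difference was known less well than that of Tlr13. With each tumor left out, the fitted value ran from 2.14 (without GB2 tumor 3) to 2.67.

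Tlr9 (ENSMUSG00000045322, chromosome 9, 106099797 to 106104082, plus strand), the receptor for unmethylated CpG DNA, had the fewest reads. It had no reads in PBS tumors 1 and 3 and 0.34 CPM in PBS tumor 2, against 0.42, 0.42 and 0.71 CPM in GB2 tumors. The groups did not overlap, but PBS tumor 2 came close to the lower GB2 tumors. The log2 fold change of 2.15 had an interval from -1.12 to 5.41 and an edgeR adjusted p of 0.773, and 6 against 32 read pairs gave a ratio of 4.24 with a counting interval of 1.75 to 12.4. Without PBS tumor 2 the remaining PBS tumors were at 0, and against a limit of 3 read pairs per library Tlr9 was at least 2.76-fold higher in GB2. The fitted value was 3.91 under the replicate block and 0.95 on log2(FPKM + 0.1), and a stricter count filter removed the gene.

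Tlr3 (ENSMUSG00000031639, chromosome 8, 45848702 to 45864117, minus strand), the receptor for double-stranded RNA, stood apart from the other endosomal receptors. It was at 16.71, 18.05 and 16.44 CPM in PBS tumors and at 18.90, 19.10 and 22.07 CPM in GB2 tumors. The GB2 tumors were all higher, yet the gap between PBS tumor 2 and GB2 tumor 1 was less than the range within either group. The ratio of the means was 1.17, and the log2 fold change of 0.23 had an interval from -0.19 to 0.65 and an edgeR adjusted p of 0.796. The upper end of this interval lay below the lower end of the intervals of Tlr7, Tlr8 and Tlr13.

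RefSeq sequences of the 250 bases before the transcription start (GRCm38.p6) were searched for 7 of the 10 genes. Cd14 was left out of this search by choice, and no such sequence was at hand for Tlr4 and Tlr7. Of the 7, 5 are shown, Tlr8 and Tlr13 because of their large differences and Tlr1, Tlr2 and Tlr3 because theirs were small or overlapped. Capitals mark the core of the PU.1 motif, GAGGAA, read on either strand. PU.1, encoded by Spi1, is a transcription factor of macrophages and other myeloid cells.
Tlr8, chrX:167264330-167264579, minus strand: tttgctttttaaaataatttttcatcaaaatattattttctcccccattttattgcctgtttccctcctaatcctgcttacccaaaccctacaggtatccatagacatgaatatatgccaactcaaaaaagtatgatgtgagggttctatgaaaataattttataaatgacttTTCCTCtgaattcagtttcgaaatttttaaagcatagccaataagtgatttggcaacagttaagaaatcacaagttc
Tlr13, chrX:106143025-106143274, plus strand: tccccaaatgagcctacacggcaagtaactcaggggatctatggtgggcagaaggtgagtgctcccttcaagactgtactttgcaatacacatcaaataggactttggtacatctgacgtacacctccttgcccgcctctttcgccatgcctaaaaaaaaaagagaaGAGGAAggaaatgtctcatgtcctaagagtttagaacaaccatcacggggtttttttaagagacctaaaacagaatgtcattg
Tlr1, chr5:64933559-64933808, minus strand: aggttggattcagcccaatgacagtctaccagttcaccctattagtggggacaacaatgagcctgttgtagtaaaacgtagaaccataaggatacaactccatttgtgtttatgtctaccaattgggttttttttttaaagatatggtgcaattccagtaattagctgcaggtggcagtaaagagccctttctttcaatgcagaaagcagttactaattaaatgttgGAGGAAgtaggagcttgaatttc
Tlr2, chr3:83841609-83841858, minus strand: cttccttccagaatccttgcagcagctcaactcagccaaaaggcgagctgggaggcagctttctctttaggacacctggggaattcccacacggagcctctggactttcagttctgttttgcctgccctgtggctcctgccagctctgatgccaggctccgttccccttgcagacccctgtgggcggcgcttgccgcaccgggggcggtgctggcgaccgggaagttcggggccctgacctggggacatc
Tlr3, chr8:45410381-45410630, minus strand: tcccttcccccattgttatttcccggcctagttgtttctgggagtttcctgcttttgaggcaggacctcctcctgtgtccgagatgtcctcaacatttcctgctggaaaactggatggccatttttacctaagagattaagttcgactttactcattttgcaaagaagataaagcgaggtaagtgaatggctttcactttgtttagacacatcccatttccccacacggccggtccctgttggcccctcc
The GAGGAA core was present before a start of Tlr1, Tlr8, Tlr9 and Tlr13, in 4 of the 9 windows of these 7 genes (Tlr1 and Tlr6 had 2 starts each), and in 23.3% of 32851 promoter windows of this length. It began 77 bases before the start in Tlr8, 83 bases before it in Tlr13 and 23 bases before it in Tlr1, so it was present with large and with overlapping differences. The core of the interferon-stimulated response element was matched in Tlr6 only (2.98% of promoters), the AP-1 site TGANTCA in Tlr9 only (6.75%), and a single exact form of the NF-kappa B site in none of the 7 (0.140%), with both strands searched each time. Other forms of the NF-kappa B site were not searched. These matches describe letters in the window and were not tested for binding.

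Per transcript length, 2 receptors made up most of the receptor RNA in both groups. In FPKM, Tlr4 averaged 3.54 ± 1.57 in PBS and 4.89 ± 1.05 in GB2 tumors, and Tlr3 averaged 3.05 ± 0.292 and 3.76 ± 0.380 (SD, n = 3 each). In PBS tumors they were followed by Tlr1 (0.753), Tlr2 (0.467), Tlr13 (0.260), Tlr6 (0.198), Tlr7 (0.099), Tlr8 (0.041) and Tlr9, which was at 0, 0.094 and 0 FPKM. Among neighbours in this order only Tlr3 and Tlr1, and Tlr7 and Tlr8, had ranges that did not overlap. In GB2 tumors Tlr13 (1.02 ± 0.190 FPKM) stood in the 3rd place, followed by Tlr1 (1.01), Tlr2 (0.851), Tlr7 (0.369), Tlr8 (0.242), Tlr6 (0.191) and Tlr9 (0.143). There only Tlr3 and Tlr13, and Tlr2 and Tlr7, had ranges apart.

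The balance of surface against endosomal receptors did not separate the groups. The surface receptors held 48.4%, 55.8% and 67.3% of the summed receptor FPKM in PBS tumors and 60.0%, 56.5% and 50.6% in GB2 tumors, with means of 57.2% ± 9.52 and 55.7% ± 4.76 (SD, n = 3 each). The GB2 values lay inside the PBS range. Within the sum, the shares of 3 receptors were higher in every GB2 tumor: Tlr13 went from 3.36% ± 1.59 to 8.17% ± 1.52, Tlr7 from 1.17% ± 0.11 to 2.93% ± 0.84 and Tlr8 from 0.49% ± 0.11 to 1.92% ± 0.63. Tlr4 held 40.7% ± 8.25 and 39.4% ± 9.46, and Tlr3 37.4% ± 7.79 and 30.1% ± 1.96, with overlapping groups.

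The summed FPKM of the endosomal receptors was 3.16, 3.86 and 3.41 in PBS tumors and 5.09, 5.09 and 6.44 in GB2 tumors, a ratio of means of 1.59 with no overlap. Without Tlr3, a split chosen after its values were seen, the other 4 endosomal receptors summed to 0.41, 0.53 and 0.35 FPKM in PBS and 1.48, 1.59 and 2.24 FPKM in GB2 tumors, a ratio of 4.12. The surface receptors summed to 2.96, 4.89 and 7.02 FPKM in PBS and 7.63, 6.60 and 6.59 FPKM in GB2 tumors, a ratio of 1.40 with overlapping groups. PBS tumor 1 had the lowest surface sum of all 6 tumors.

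**Figure D3:**
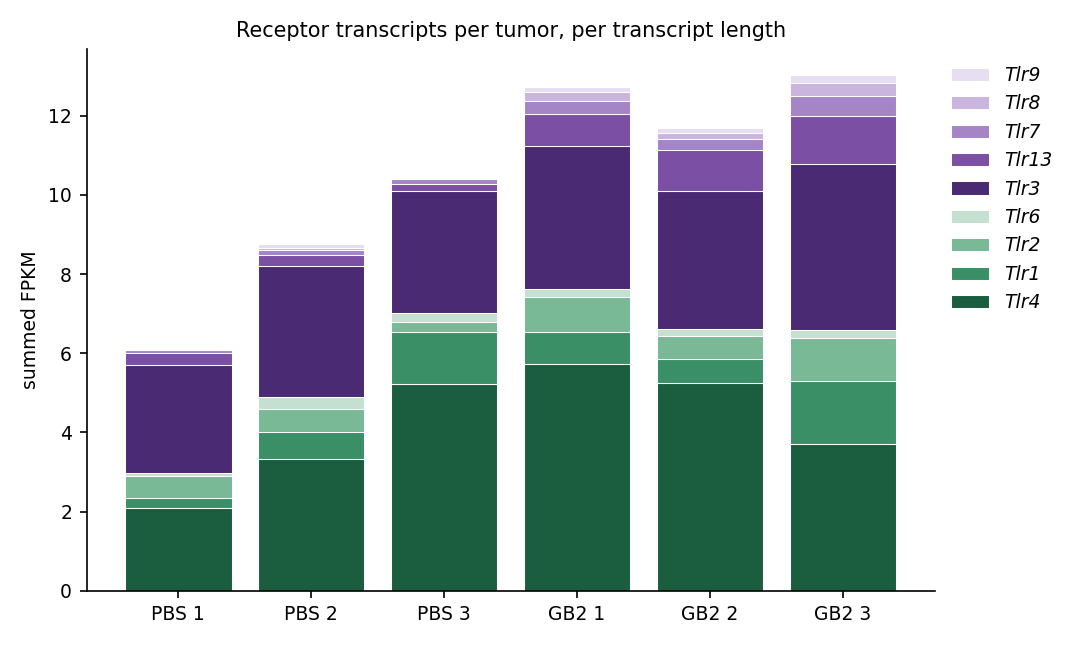
Summed FPKM of the 9 receptors in each tumor (vertical axis), stacked by receptor, with surface receptors in green and endosomal receptors in purple. Tlr4 and Tlr3 are the largest blocks in every tumor, and the blocks of Tlr13, Tlr7 and Tlr8 are larger in each GB2 tumor than in each PBS tumor.

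The macrophage markers differed between the groups as some members did, and each member was also set against them within the same tumor. The mean log2 CPM of the 10 macrophage markers was 2.42, 2.49 and 1.74 in PBS tumors and 3.78, 3.86 and 4.54 in GB2 tumors, a difference of 1.84. For Tlr13, log2 CPM minus this mean was -1.75, -2.16 and -1.88 in PBS and -1.94, -1.61 and -2.16 in GB2 tumors. The 2 groups covered nearly the same range, and their means differed by 0.02. The same quantity differed by -0.10 for Tlr7 and by 0.44 for Cd14, each with overlapping groups. It also overlapped for Tlr8, whose PBS values at the detection limit depend on the prior count, so that no difference is given. Tlr9 had no reads in PBS tumors 1 and 3, where its value on this scale is set by the prior count, and no difference is given for it.

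On this scale a gene with equal CPM in both groups falls by 1.84, the difference of the marker mean itself. Tlr3 was lower in every GB2 tumor, with 1.64, 1.68 and 2.30 in PBS and 0.47, 0.40 and -0.07 in GB2 tumors. Its difference of -1.61 therefore mostly restates that of the markers. Relative to the markers, Tlr4 (-1.38), Tlr2 (-1.01) and Tlr6 (-1.76) were also lower in every GB2 tumor, as a gene with equal CPM would be. Tlr1 differed by -1.30 with overlapping groups. No share of all genes is given on this scale, so these separations are no result about the members. These are descriptions without a test. The part of the macrophage markers, and of the fibroblast and endothelial markers that differed alongside them, in the members' differences was not tested.

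**Figure D4:**
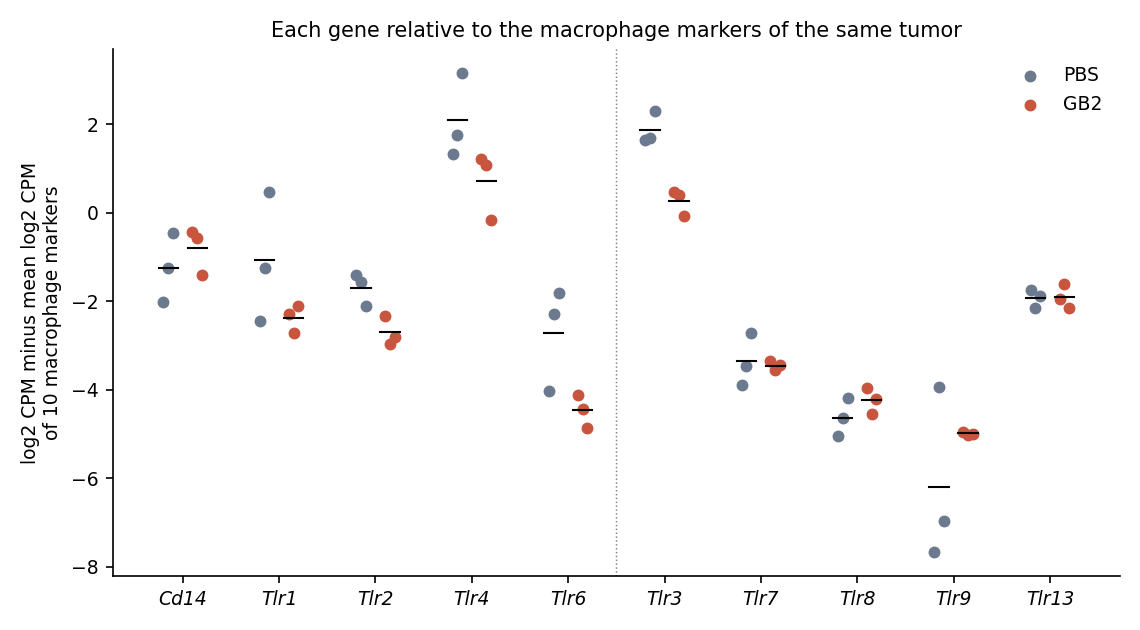
Log2 CPM of each gene minus the mean log2 CPM of 10 macrophage markers in the same tumor (vertical axis), for the 3 PBS (grey) and 3 GB2 (red) tumors, with a dotted line between surface and endosomal genes; the Tlr9 points of PBS tumors 1 and 3 are set by the prior count. Tlr13, Tlr7, Tlr8, Cd14 and Tlr1 overlap between the groups, while Tlr2, Tlr3, Tlr4 and Tlr6 lie lower in every GB2 tumor. A gene with equal CPM in both groups would lie 1.84 lower in GB2 tumors, since the marker mean is higher there.

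Markers of the other cells that can express these receptors were read in the same way. Of 9 neutrophil markers 4 had enough counts to be tested. All 4 (S100a8, S100a9, Csf3r and Cxcr2) were higher in every GB2 tumor, against 8.61% of all genes (summed list 2.29 to 4.44 CPM in PBS, 9.14 to 11.8 in GB2). Ly6g and Mpo were at 0 in all tumors. Elane (0.05 CPM in PBS tumor 1) and Camp (0.17 CPM in PBS tumor 3) were at 0 in every other tumor. Ngp did not exceed 0.14 CPM and overlapped between the groups. The conventional dendritic cell list summed to 8.15 to 10.5 CPM in PBS and 13.8 to 16.4 CPM in GB2 tumors, but only 1 of its 4 tested genes did not overlap, Itgax, which macrophages also express. Zbtb46 (6.32 to 8.26 CPM in PBS, 8.18 to 9.67 CPM in GB2), Clec9a (at most 0.41 CPM) and Cd209a (at most 0.29 CPM) overlapped between the groups, and Flt3 and Xcr1 did not exceed 0.14 CPM. Plasmacytoid dendritic cells and B cells are the classical sources of Tlr9. The list for the first summed to 23.9 to 75.5 CPM in PBS and 47.7 to 86.2 CPM in GB2 tumors, nearly all of it Bst2, which many cells express. Its 3 tested genes, Bst2, Ccr9 (0.06 to 0.20 CPM) and Cox6a2 (0.42 to 1.39 CPM), overlapped between the groups, and Siglech was at 0 in 4 of 6 tumors and at most at 0.09 CPM. The B cell list summed to 0.57 to 1.32 CPM in PBS and 0.51 to 1.20 CPM in GB2 tumors. The part of these cells in the members' differences was not tested.

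By the size of the root mean square difference of centred log2 CPM over the 6 tumors, among 13973 genes, the genes most like Tlr7 were Siglec1, Ms4a6d and Il4ra (0.14 to 0.15). Those most like Tlr13 were Hdc, Pla2g7 and Cxcl5 (0.12 to 0.16), those most like Cd14 were Kcnj2, Acp5 and Lyz2 (0.17 to 0.21), and those most like Tlr8 were Mfap4, Mmp13 and Smoc2 (0.14 to 0.16). For Tlr9 they were Themis2, Ifi207 and Itgam at 0.68 to 0.84, a much looser likeness. Tlr9 had no reads in PBS tumors 1 and 3, and Tlr8 was at the detection limit in PBS tumors. The distances of Tlr8 and Tlr9 therefore depend on the prior count. The nearest patterns to Tlr4 were Ptp4a3, Inpp1 and D030028A08Rik (0.08 to 0.09), to Tlr3 Ythdc2, Gsr and Ipo11 (0.04 each), to Tlr6 Smo, Plekha4 and Cacna1c (0.04 to 0.08), to Tlr1 Fam89a, Adam19 and Col18a1 (0.14 to 0.24), and to Tlr2 Fabp4, Icam1 and Meox1 (0.13 to 0.19). A gene that varied little, such as Tlr3, reaches a small distance more easily.

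The rest of the family had few reads, and both tested genes were highest in GB2 tumor 2. Tlr12, an endosomal receptor for profilin, was at 0.07, 0.11 and 0.08 CPM in PBS tumors, all under the limit of 3 read pairs, and at 0.33, 0.85 and 0.24 CPM in GB2 tumors, all above it. About 4 read pairs in PBS and 30 in GB2 tumors gave a ratio of 5.96 with a counting interval of 2.1 to 23.3. Its fitted log2 fold change of 2.39, which these few PBS reads leave imprecise, had an edgeR adjusted p of 0.465 and was 1.66 without GB2 tumor 2. Tlr5, the flagellin receptor, was at 0.07, 0.17 and 0.30 CPM in PBS and 0.38, 1.19 and 0.28 CPM in GB2 tumors, with overlapping groups. Its log2 fold change of 1.77 (edgeR adjusted p 0.744) was 0.88 without GB2 tumor 2. Tlr11 did not exceed 0.14 CPM and was not tested.

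Among the partners at the surface, 3 of 5 genes passed the unadjusted limit, all higher in GB2, against 3.74% of all genes. Ly86 (MD-1) and Cd180 (RP105) form a complex related to that of Tlr4, and their log2 fold changes were 2.60 ± 0.67 and 1.58 ± 0.37 (± standard error, edgeR adjusted p 0.331 and 0.281). Ly86 had few reads in PBS tumors (0.29, 0.44 and 0.10 CPM), and PBS tumor 3 lay under its limit of 3 read pairs (0.170 CPM). On log2(FPKM + 1) the differences were 0.43 for Ly86 and 0.38 for Cd180. The scavenger receptor Cd36, a partner of Tlr2 and Tlr6, was at 8.29 to 11.1 CPM in PBS and 20.8 to 23.9 CPM in GB2 tumors (log2 fold change 1.20 ± 0.20, edgeR adjusted p 0.190). Ly96 (MD-2), which Tlr4 needs to bind lipopolysaccharide, was at 3.18 to 7.05 CPM in PBS and 3.20 to 5.57 CPM in GB2 tumors (log2 fold change -0.28, edgeR adjusted p 0.874), and it took the other sign without PBS tumor 2.

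Of 9 genes for trafficking and processing of the endosomal receptors, 2 passed the same unadjusted limit as higher, against 3.74% of all genes. The endosomal GTPase gene Rab7b had a log2 fold change of 2.01 ± 0.36 (edgeR adjusted p 0.190), and Ctss, encoding a protease that cleaves endosomal receptors, 1.80 ± 0.33 (edgeR adjusted p 0.193). Unc93b1 itself was at 18.7 to 26.7 CPM in PBS and 21.4 to 33.3 CPM in GB2 tumors, with a log2 fold change of 0.24 (edgeR adjusted p 0.825). Slc15a4, an endolysosomal transporter needed for Tlr7 and Tlr9 signals, was lower in every GB2 tumor with a log2 fold change of -0.46 (edgeR adjusted p 0.636). The median of the list was 0.24.

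The signalling genes shared by the receptors showed small differences. None of the 5 adaptor genes and none of the 15 kinase and ubiquitin ligase genes passed the unadjusted limit, against 4.66% of all genes in either direction. In all 20 the groups overlapped, where 8.61% of all genes were higher and 6.68% lower in every GB2 tumor. Their medians were 0.19 and 0.09, and the adaptors ran from -0.45 (Sarm1) to 0.36 (Tirap) and 0.52 (Ticam2, 1.13 without PBS tumor 2). Myd88 was at 10.1 to 14.1 CPM in PBS and 12.8 to 15.2 CPM in GB2 tumors. Among the kinases and ligases Tab1 (0.39), Ripk1 (0.28) and Tbk1 (-0.26) marked the ends, and Tbk1 took the other sign without PBS tumor 1.

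Of 7 transcription factor genes, 4 passed the unadjusted limit, all higher in GB2, against 3.74% of all genes. They were Irf7 (log2 fold change 1.64, edgeR adjusted p 0.341), Irf5 (1.56, 0.269), the PU.1 gene Spi1 (1.52, 0.317) and Irf8 (1.14, 0.700). Of these, Irf8 overlapped between the groups and fell below a 2-fold difference without GB2 tumor 3 (0.77). Irf7 and Irf5 act below Tlr7, Tlr8 and Tlr9, and Irf5, Irf8 and Spi1 are abundant in myeloid cells. Irf3, which acts below Tlr3 and Tlr4, was the lowest at -0.22. Of 9 inhibitor genes the receptor gene Il1rl1 (ST2) (1.62, edgeR adjusted p 0.531) and Irak3 (1.16, edgeR adjusted p 0.573) passed the unadjusted limit, and Nfkbiz was lowest at -0.28. Without PBS tumor 3, Irak3 fell just below a 2-fold difference (0.98).

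Of 22 target genes of the receptors, 18 were tested and 9 of these were higher in GB2 at the unadjusted limit, against 3.74% of all genes, with a median log2 fold change of 1.28. The costimulatory receptor gene Cd40 was at 0.07 to 0.21 CPM in PBS and 0.59 to 1.87 CPM in GB2 tumors, with a log2 fold change of 2.91 ± 0.68 (edgeR adjusted p 0.281). It rested on about 7 read pairs in PBS and 67 in GB2 tumors and was 2.21 without GB2 tumor 3. The cytokine genes Il1b (2.00, edgeR adjusted p 0.207), Il1a (1.81, 0.397) and Il6 (1.44, 0.621) and the neutrophil chemokine gene Cxcl2 (1.99, 0.322) were all higher in every GB2 tumor. Il1a and Il6 had few reads in PBS tumors (0.20 to 0.34 and 0.18 to 0.32 CPM). In 8 of the 18 the groups overlapped (Tnf, Il23a, Cxcl1, Cxcl9, Cxcl10, Ccl3, Ccl4 and Cd80), with log2 fold changes from -0.40 (Il23a) to 1.17 (Ccl3). Ccl5, a chemokine for T cells, was lower in every GB2 tumor, at 2.22 to 3.79 CPM in PBS and 1.51 to 1.58 CPM in GB2 tumors (-0.89, edgeR adjusted p 0.625). Il10, Il12a, Il12b and Ifnb1 did not exceed 0.21 CPM and were not tested.

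**Figure D5:**
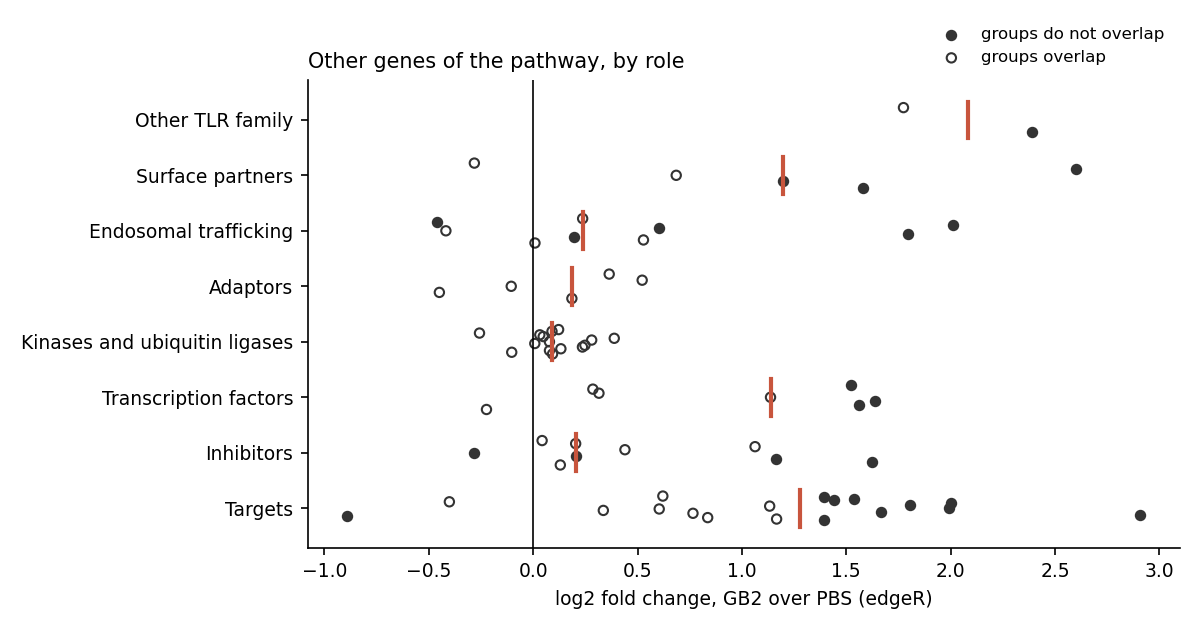
Log2 fold changes, GB2 over PBS (horizontal axis, edgeR), of the tested genes of each list of the Toll-like receptor pathway outside the 10 members, with filled points where the groups do not overlap, open points where they do, and a red bar at the median of each list. The adaptors and the kinases and ligases lie close to 0, with medians of 0.19 and 0.09, while the transcription factors and the targets have medians of 1.14 and 1.28.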

How the data were processed

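Poly-A selected, strand-marking, paired-end libraries of 6 tumors were sequenced one tumor each. Estimated counts and FPKM per gene were deposited by the authors in a single table. The deposited estimated counts are whole numbers, are not scaled between tumors, and hold about 4 counts per read pair; the deposited FPKM are per transcript length and library. The submitters' processing notes name cutadapt 1.9, HISAT2 2.2.1, StringTie 2.1.6, DESeq2, edgeR and mm10, with no roles. Of 31999 gene IDs shared with GENCODE M21 (GRCm38), 641 (2.00%) have the same start and end, and none of the 10 members does, so positions of genes are those of the table and are never combined with the GRCm38 positions of sequences.

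The count analysis used edgeR 4.0.16 in R 4.3.3 (filterByExpr with a minimum count of 10, TMM, quasi-likelihood test, Benjamini-Hochberg adjustment over 19602 genes). Standard errors come from the test statistic. The common dispersion gave a biological coefficient of variation of 40.5%. DESeq2 1.42.0 and limma 3.58.1 served as alternatives, and the computations were tested on simulated data. The paper states random assignment of mice for its animal experiments, without naming the sequenced tumors. The labels do not say how animals were batched, so p-values measure the spread between these tumors. The members and lists were chosen with earlier results of these data known. Named genes outside the members were, per list, the 2 highest and the lowest log2 fold changes and up to 5 genes at the unadjusted limit (a 2-fold difference, unadjusted p under 0.05); for each member, the 3 genes most like it were named among those with a mean log2 CPM of at least 0. Unc93b1, Myd88, the targets whose groups overlapped and the defining markers were named after their values were seen. All per-sample columns were used.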

Additional observations from a re-analysis of the deposited data

How the results depend on the processing

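Over 39 genes, 575 pairs of a gene and a setting were compared with the main fit, with at most 15 settings a gene. Of these pairs, 553 kept direction and side of the threshold, 15 passed the threshold under DESeq2 only, and 7 reversed. Since no gene passed the threshold in the main fit, a pair with a much smaller difference also counts as kept. The 553 therefore says nothing about the size of the differences. The reversals were those of Tlr6 (0.0505 on log2(FPKM + 0.1), 0.0584 under the replicate block, -0.481 to 0.25 with a tumor left out, above 0 without PBS tumor 2 or 3), Tlr1 (-0.0886 to 1.05 with a tumor left out, below 0 without GB2 tumor 3), Tbk1 (-0.363 to 0.0011, above 0 without PBS tumor 1) and Ly96 (-0.588 to 0.0815, above 0 without PBS tumor 2). DESeq2 called 385 genes and 4 members, where edgeR called 0 under each of its other scalings and filters. On log2(FPKM + 1), Cd14 kept a 2-fold difference (log2 fold change 1.63), while Tlr7 (0.31), Tlr8 (0.25) and Tlr13 (0.68) did not. The endosomal median on that scale was 0.25 (1.22 on log2(FPKM + 0.1)), since a pseudocount shrinks differences of low genes.

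Leaving out each tumor in turn gave 0 to 0 genes called, 0 to 0 members called, 4 to 5 members at the unadjusted limit (3.50% to 6.67% of all genes) and 6 to 7 members without overlap (21.6% to 30.3% of all genes). The surface median ran from 0.19 (without PBS tumor 1) to 0.77 (without PBS tumor 3), and the endosomal median from 1.68 to 2.01. Between tumors of the same number, the deviations from the group means had correlations of 0.03, 0.15 and -0.24. Tumors of unlike number were not compared, so these values cannot decide whether the numbers pair the tumors. A replicate block gave 0 genes called and medians of 0.53 (surface) and 1.89 (endosomal). Tlr9, Tlr12, Tlr5, Sarm1 and Il6 were removed by the stricter filter and by dividing counts by 4. Among the members, the depth limits Tlr8 and Tlr9 most.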
